A study of Mus musculus with 4 samples.

Results

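The 10 genes described here make up the core of the MHC class I presentation pathway and the immunoproteasome in mouse distal colon. They were chosen by name, with earlier results of these data known. Every probe set that the platform annotation assigns to just 1 of them was used, which gave 27 of the 45101 probe sets. The 10 genes are the heavy chain genes H2-K1 and H2-D1, the light chain gene B2m, the peptide transporter genes Tap1 and Tap2, the loading chaperone gene Tapbp, the immunoproteasome genes Psmb8, Psmb9 and Psmb10, and the transactivator gene Nlrc5. Of the 27 probe sets, 20 lay above the median of their array on at least 1 of the 4 arrays, and these covered all 10 genes. The other 7 were dim probe sets of H2-D1, Tap1 and Psmb8. In the text below a gene is represented by its brightest probe set, by the mean of the 4 arrays, and its value is a log2 expression value unless another quantity is named.

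The study measured total RNA from distal colon on 4 Affymetrix arrays, 1 for each group. The sample titles do not give the number of mice behind an array. The mice were wild type for Adamts12 (WT) or deficient in this secreted metalloprotease (Adamts12 KO), and for each genotype there was 1 untreated array. For the other array, 2% dextran sodium sulfate (DSS), which damages the lining of the colon, was given to drink. DSS was given for 8 days by the treatment protocol or 7 days by the series text, followed by 1 day without it. All mice were 8 to 10 weeks old when treatment started. The labels give neither the strain nor the part of Adamts12 that was removed. As each group is a single array, no difference between arrays can be checked against replicates, and their number limits the precision. In whole tissue, fewer cells of a type and less RNA per cell cannot be told apart.

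MHC class I molecules show peptides from inside the cell to CD8 T cells and NK cells. Proteasomes cut proteins into peptides, the TAP transporter carries these into the endoplasmic reticulum, and tapasin, the product of Tapbp, holds the empty class I molecule beside the transporter until a peptide is bound. Interferon-gamma raises expression of the pathway in most cell types and makes cells exchange the catalytic subunits of the standard proteasome for Psmb8, Psmb9 and Psmb10. NLRC5 acts with factors bound to the promoters of class I genes, B2m, Tap1 and Psmb9. Colon epithelial cells express class I, as do the leukocytes, stromal and endothelial cells around them.

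Sequences of 3 promoter regions are shown because they hold elements by which class I and its partner genes are known to be switched on. RefSeq promoter windows on GRCm38.p6 were at hand for 8 of the 10 genes, and the 250 bases before the start were searched on both strands. The searched motifs were the interferon-stimulated response element (ISRE, GAAA, any 2 bases, GAAA), the gamma-activated site (GAS, TTCNNNGAA), the NF-kappaB consensus, the CCAAT box (CCAAT), the core of the cAMP response element (TGACG) and the GC box (GGGCGG). The first sequence lies before H2-D1 at chr17:35262894-35263093 on the + strand, and the second before B2m at chr2:122147487-122147686 on the + strand. The third, at chr17:34187331-34187555 on the + strand, is the whole stretch of 225 bases between the starts of Psmb9 and Tap1, which are read in opposite directions. Capitals mark matches to the ISRE, the NF-kappaB consensus, TGACG and CCAAT, which reads ATTGG where it lies on the other strand.
H2-D1: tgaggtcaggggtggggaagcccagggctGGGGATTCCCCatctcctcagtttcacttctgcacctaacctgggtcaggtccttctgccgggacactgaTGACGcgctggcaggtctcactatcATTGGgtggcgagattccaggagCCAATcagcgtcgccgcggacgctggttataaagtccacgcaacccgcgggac
B2m: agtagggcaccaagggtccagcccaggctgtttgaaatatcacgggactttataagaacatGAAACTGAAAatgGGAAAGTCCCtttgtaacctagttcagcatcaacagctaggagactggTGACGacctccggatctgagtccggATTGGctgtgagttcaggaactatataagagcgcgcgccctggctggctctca
Psmb9 to Tap1: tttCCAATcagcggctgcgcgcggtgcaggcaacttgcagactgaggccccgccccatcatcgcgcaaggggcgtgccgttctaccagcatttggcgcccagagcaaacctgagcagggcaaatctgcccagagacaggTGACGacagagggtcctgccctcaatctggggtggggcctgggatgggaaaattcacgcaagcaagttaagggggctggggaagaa

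In H2-D1 the NF-kappaB matches, a pair that overlap, begin 171 bases before the start, followed by TGACG at 101 and CCAAT boxes at 76 and 53. B2m has the ISRE at 139, the NF-kappaB match at 126, TGACG at 78 and a CCAAT box at 53. A TGACG was found in 5 of the 8 windows (H2-K1, H2-D1, B2m, Tap1 and Psmb9), against 17.7% of 32817 RefSeq windows of the same length. The same 5 genes and Tapbp had a CCAAT box, 6 of 8 against 33.8%, and H2-K1, H2-D1 and B2m had an NF-kappaB match, 3 of 8 against 7.25%. A single gene each matched the ISRE (B2m, against 2.97%) and the GAS (Psmb8, against 7.01%). GC boxes were found for Tapbp, Psmb9 and Tap1, 3 of 8 against 32.7%. Psmb9 and Tap1 share 225 bases of their windows, and GC boxes are not in capitals. A match is a description of the letters and not evidence of binding. The searched letters were strict, so a window without a match, as that of H2-D1 for the ISRE, can still hold a variant of the element. On chromosome 17, Psmb9, Tap1, Psmb8 and Tap2 follow each other with no other protein-coding gene between them, and H2-K1, H2-D1 and Tapbp lie on the same chromosome. B2m lies on chromosome 2, and Psmb10 and Nlrc5 on chromosome 8.

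The untreated KO array stood apart from the other 3 in genes that mark position along the gut, and the part of this in the results below was not tested. All 11 small intestine and proximal colon markers above the filter were highest on it, with a summed linear level of 2718 against 179 to 488 on the others, while Apoa1, Apoa4, Gata4 and Lct did not pass the filter. In the median they were higher in KO than WT by 3.35 among untreated mice, and the value was -0.12 with DSS. Of these, 4 passed the filter through that array alone and had to be highest on it, such as Osr2 (7.67 against 1.16 to 1.65). The other 7 had a median difference of 2.02 without DSS, and with no filter the median was 1.97 over 15 genes. Posterior Hox genes, which are active in the hindgut, had a median of -1.415 without DSS over 12 genes, with Hoxb13 at 2.48 on the untreated KO array against 7.84 to 9.47 on the others. Of the 12, 5 were higher in untreated KO, Hoxd8 (1.54) and Hoxb9 (1.25) by at least 2-fold. Hoxc9, another of the 5, passed the filter through the untreated KO array alone and had to be highest there. The other 11 had a median of -1.52. The Hox median depended on the filter, at -0.56 over 14 genes without it and -2.48 over 6 with a stricter one (75th percentile). Hoxd13 and Hoxd10 were also lower on the WT DSS than on the untreated WT array, at 4.22 against 8.82 and 2.37 against 5.82. The Adamts12 probe set with the higher values was dim, with 2.18 on both WT arrays and 1.42 and 1.41 in untreated and DSS-treated KO. Values without the untreated KO array are given after those of the 4 comparisons.

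All 10 genes had their highest value on the untreated KO array. Over all 12189 genes compared, 28.7% had their highest value there. This count was chosen after the values were seen. It held for all 20 probe sets above the filter, where the share over all 21121 such probe sets was 27.4%, and for 25 of all 27. The exceptions, both under the filter, were a Tap1 probe set, highest in untreated WT (0.92 against 0.76 in untreated KO), and a Psmb8 probe set, highest in KO with DSS (2.42 against 2.40). No gene of the 10 spanned 2-fold over the 4 arrays.

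**Figure D1:**
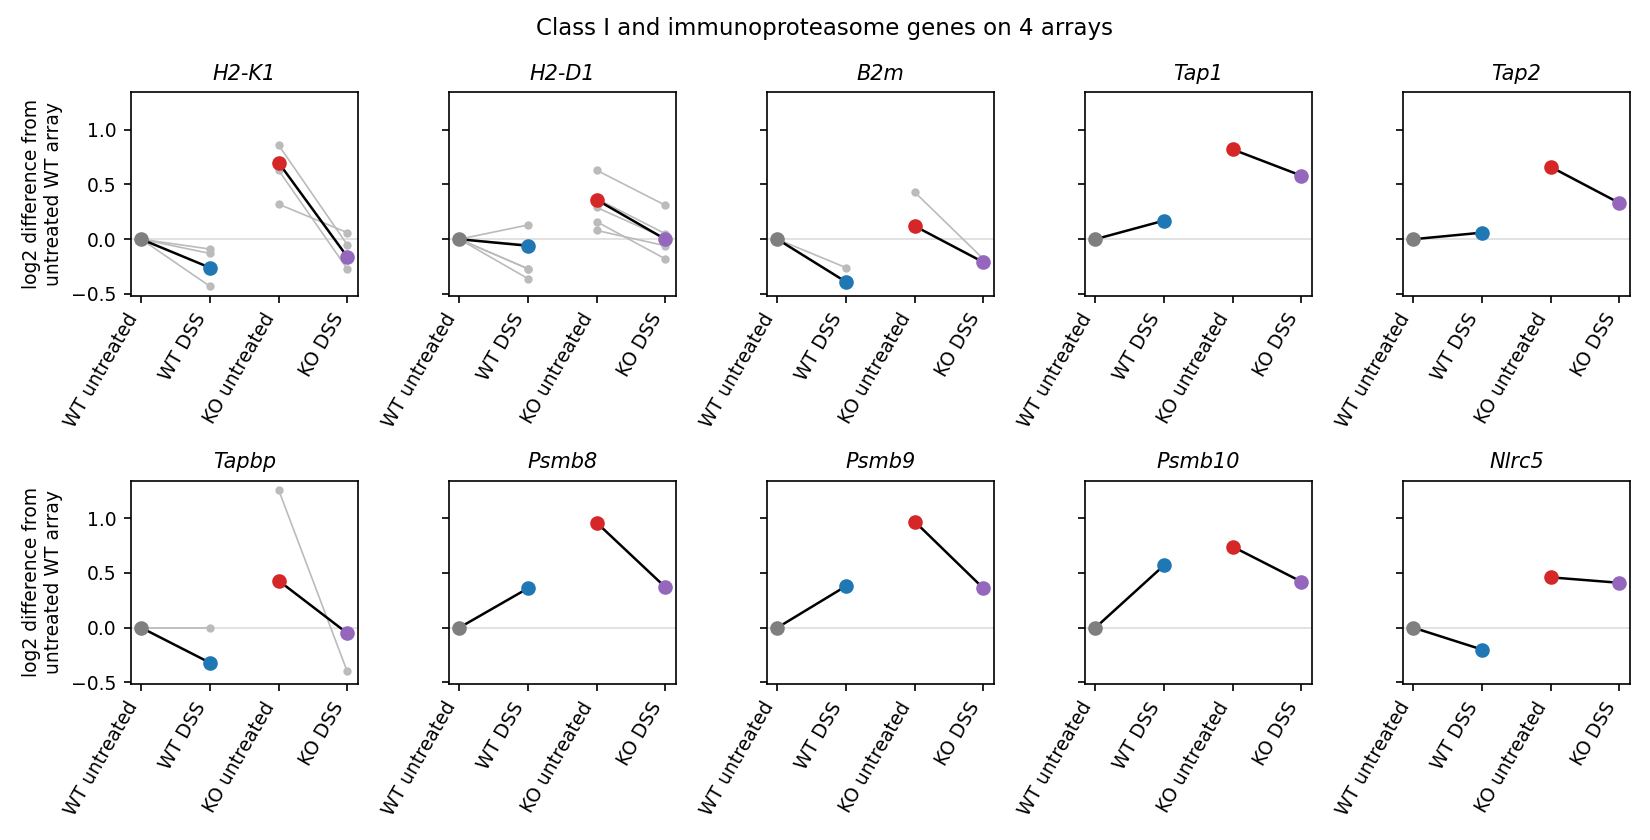
Log2 difference from the untreated WT array (y axis) on each of the 4 arrays (x axis) for the 10 genes. Coloured points are the probe set that represents the gene, grey points its other probe sets above the filter, and lines join the untreated and DSS array of 1 genotype. The untreated KO array (red) is the highest in every panel, and the KO DSS array (purple) lies below it.

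The heavy and light chain genes were among the brightest probe sets of each array. H2-K1 had 11.53 in untreated WT, 11.27 in WT with DSS, 12.23 in untreated KO and 11.37 in KO with DSS. The untreated KO array stood above the other 3, which lay within 0.26 of each other. H2-D1 had 11.47 and 11.41 in untreated and DSS-treated WT, and 11.83 and 11.47 in untreated and DSS-treated KO, the same array on top with a smaller spread. B2m, whose product is shared by all classical class I molecules, had 11.59 and 11.20 in WT and 11.71 and 11.38 in KO, so that here both DSS arrays lay below both untreated arrays.

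Several probe sets target each heavy chain gene, and 11 of the 13 heavy chain probe sets are of a type (_x_at) that can match several transcripts. Signal from H2-K1, H2-D1 and other class I genes can therefore not be told apart in them. The 4 H2-K1 probe sets were all higher on the untreated KO than on the untreated WT array, by 0.32 to 0.86, and all lower with DSS in KO, by -0.26 to -0.91. For H2-D1, the 6 probe sets above the filter differed by 0.08 to 0.63 and by -0.14 to -0.36 in those comparisons. The H2-D1 probe set above the filter that is not of this type had 6.84 and 6.97 in untreated and DSS-treated WT and 7.47 and 7.15 in KO. It was slightly higher with DSS in WT, by 0.13, where the other 5 were lower. The other B2m probe set differed more between the untreated arrays, by 0.43 against 0.12.

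The transporter and loading genes were of intermediate brightness. Tap1 had 6.76 in untreated WT, 6.93 in WT with DSS, 7.58 in untreated KO and 7.34 in KO with DSS. Tap2 had 6.39 and 6.45 in WT and 7.05 and 6.72 in KO. In the probe sets that represent the 2 transporter genes, the KO arrays lay above the WT arrays under either treatment. A dimmer Tap1 probe set, which did not pass the filter, had 2.59 and 2.86 in WT and 3.33 and 2.53 in KO. With DSS it was thus lower in KO than in WT, by -0.33. Tapbp had 9.08 and 8.76 in WT and 9.51 and 9.03 in KO. Its other probe set had 6.23 on both WT arrays, 7.49 in untreated KO and 5.83 in KO with DSS. That probe set was the only one of the 27 with a difference of at least 2-fold, higher by 1.26 in untreated KO (3.09% of all probe sets were at least 2-fold higher) and lower with DSS in KO by -1.66 (6.08% at least 2-fold lower). On the KO DSS array it lay below both WT arrays while the brighter one lay between the WT values.

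The immunoproteasome genes Psmb8 and Psmb9 had the largest differences of the 10 between the untreated arrays. Psmb8, also called LMP7, had 7.91 in untreated WT, 8.27 in WT with DSS, 8.87 in untreated KO and 8.28 in KO with DSS. Psmb9, also called LMP2, had 7.21 and 7.59 in WT and 8.18 and 7.57 in KO. Psmb10, also called MECL-1, had 8.64 and 9.21 in WT and 9.38 and 9.06 in KO. In each of the 3, the untreated WT array was the lowest, the untreated KO array the highest, and the DSS arrays lay between them, within 0.15 of each other.

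Nlrc5, the class I transactivator, was measured by 1 probe set and was the member with the smallest difference between the KO arrays. It had 6.03 and 5.83 in untreated and DSS-treated WT and 6.49 and 6.44 in KO. Both KO arrays lay above both WT arrays, and the KO arrays differed by -0.05.

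Without DSS, the KO colon had higher levels of all 10 genes than the WT colon. The log2 differences ran from 0.12 for B2m to 0.97 for Psmb9, which is 1.96-fold, with a median of 0.68 against -0.01 over all genes. Of all genes, 48.2% were higher by any amount. No member reached 2-fold (background 3.43% higher and 5.99% lower), and 6 reached 1.5-fold, a threshold added after the values were seen (background 9.73%). These were Psmb9, Psmb8 (0.96), Tap1 (0.82), Psmb10 (0.74), H2-K1 (0.70) and Tap2 (0.66), while Nlrc5 (0.46), Tapbp (0.43), H2-D1 (0.36) and B2m lay under it. With _x_at and _s_at probe sets left out, H2-D1 was higher by 0.63, past 1.5-fold. Psmb8, Psmb9 and Tap1 lay above 0.81, the limit that the highest 5% of all genes passed.

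With DSS, the genotypes differed less in most of the 10 genes, and less over all genes too. Regardless of sign, the median size of the KO minus WT difference over all genes was 0.2 with DSS and 0.32 without it. The median KO minus WT difference of the 10 genes was 0.14, against -0.02 over all genes, with 8 higher and 2 lower (background 45.3% higher and 52.6% lower). The differences of Psmb8 (0.01), Psmb9 (-0.02) and Psmb10 (-0.15) were the lowest. Nlrc5 had the highest, 0.61, followed by Tap1 at 0.41 and Tap2 and Tapbp at 0.27 each. Nlrc5 was the 1 gene that reached 1.5-fold (background 9.86%), and none reached 2-fold (background 4.22% higher and 1.21% lower). The genes other than Psmb9 and Psmb10, 8 of the 10, were higher in KO under both treatments (background 16.6%).

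**Figure D2:**
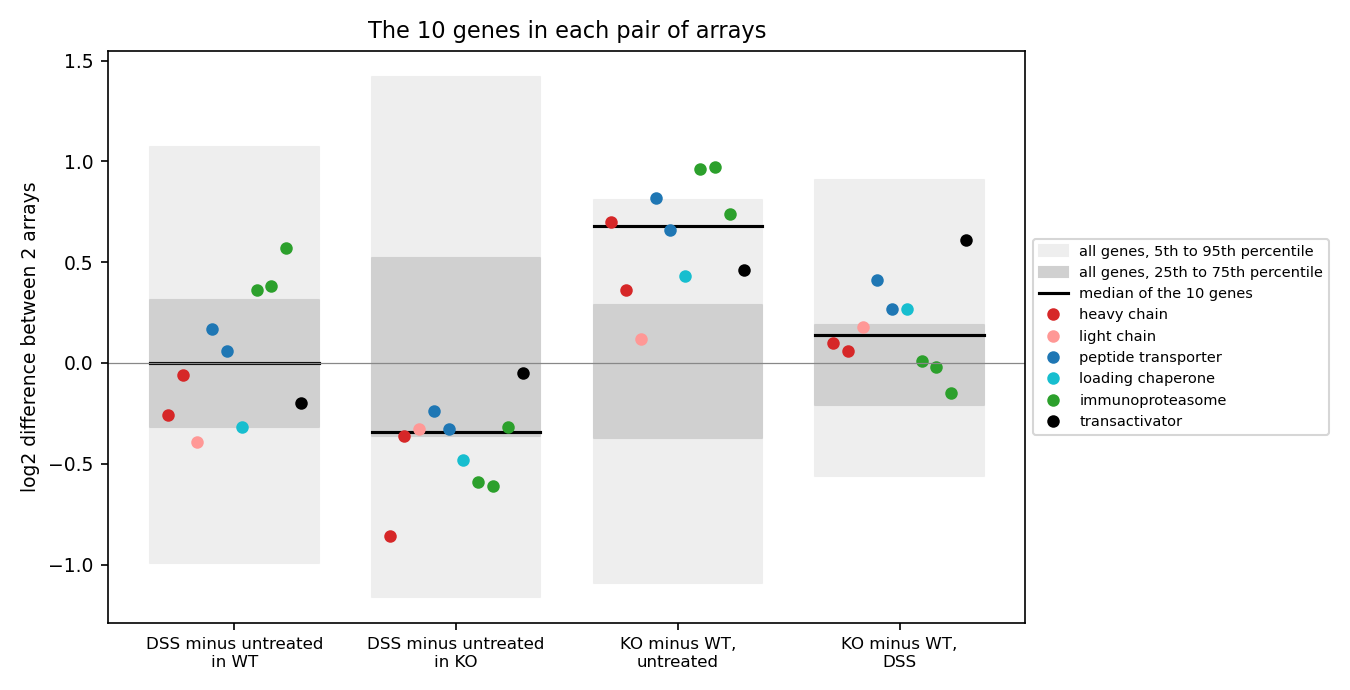
Log2 difference (y axis) of each of the 10 genes in the 4 pairs of arrays (x axis), coloured by role, with the black line at their median and grey bands for the percentiles of all 12189 genes. The 10 genes lie above 0 in the untreated KO minus WT comparison (median 0.68) and below 0 with DSS in KO (median -0.345).

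In WT the 10 genes were divided in sign. Psmb10, Psmb9 and Psmb8 were higher with DSS, by 0.57, 0.38 and 0.36, and Tap1 and Tap2 by 0.17 and 0.06. B2m (-0.39), Tapbp (-0.32), H2-K1 (-0.26), Nlrc5 (-0.20) and H2-D1 (-0.06) were lower. Higher and lower genes were 5 each (background 48.5% and 50%). The median was 0.0, against -0.01 over all genes, and none of the 10 reached 1.5-fold (background 13.3% higher and 12.8% lower) or 2-fold (background 5.82% and 4.96%).

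In KO all 10 genes were lower with DSS, where 45.4% of all genes were. The median was -0.345, against 0.06 over all genes, and the differences ran from -0.05 for Nlrc5 to -0.86 for H2-K1. H2-K1, Psmb9 (-0.61) and Psmb8 (-0.59) were lower by at least 1.5-fold (background 15.1%), and none reached 2-fold (background 6.68% lower and 10.8% higher). This comparison shares the untreated KO array with the comparison of the untreated genotypes. The DSS difference in KO minus that in WT was -0.99 for Psmb9, -0.95 for Psmb8 and -0.89 for Psmb10, -0.60 for H2-K1, and between -0.41 and 0.15 for the other 6 genes. With 1 array per group these differences were not tested. Of the 10 genes, 5, the immunoproteasome and transporter genes, were higher with DSS in WT and lower in KO, a pattern seen in 17.7% of all genes, and the other 5 were lower in both genotypes (background 26.9%).

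In a comparison that leaves out the untreated KO array and was added after the values were seen, KO DSS minus untreated WT, 6 genes were higher, 3 lower and H2-D1 equal, and 51.8% of all genes were higher. The median was 0.345, against 0.02 over all genes. Tap1 was higher by 0.58, Psmb10 by 0.42, Nlrc5 by 0.41, Psmb8 by 0.37, Psmb9 by 0.36 and Tap2 by 0.33, and Tapbp (-0.05), H2-K1 (-0.16) and B2m (-0.21) were lower. Psmb8 and Psmb9 thus differed from untreated WT by about as much as on the WT DSS array, 0.36 and 0.38.

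The only tests the design allows use all 4 arrays in limma. They compare the DSS with the untreated arrays, adjusting for genotype, and the KO with the WT arrays, adjusting for treatment. Any difference in effect between the levels of the other factor counts as error there, with 1 residual degree of freedom. None of the 10 genes passed either test after Benjamini-Hochberg adjustment over all 12189 genes, and none had an unadjusted p under 0.05 in either, though H2-K1 did for DSS under quantile normalization. For DSS, limma called 0% of all genes after adjustment and 11.8% before it, and for KO 0% and 1.44%. The lowest adjusted p of the 10 genes for DSS in limma was 0.480, for H2-K1, with a log2 difference of -0.56 (SE 0.24) and lower values in both genotypes. For KO, Tap1 had the largest mean difference, 0.615 (SE 0.25), then Nlrc5, 0.535 (SE 0.23), both higher under both treatments, and the adjusted p in limma was 1.00 for every member.

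Most genes of the other proteasome subunits were higher with DSS in both genotypes. The constitutive catalytic subunits that the immunoproteasome subunits replace were higher with DSS in both genotypes. Psmb5 had 8.04 and 8.72 in untreated and DSS-treated WT and 8.30 and 8.52 in KO, Psmb6 had 8.11, 8.66, 8.26 and 8.69, and Psmb7 had 8.98, 9.53, 9.21 and 9.45 in the same order. None of them was highest on the untreated KO array. The 19S regulator recognises and unfolds substrates, and of its 20 genes all 20 had higher values with DSS in WT and 19 did in KO (48.5% and 53.6% of all genes were higher), with medians of 0.60 and 0.625. Of 10 housekeeping genes, 9 were also higher with DSS in each genotype, with medians of 0.18 and 0.355. At least 2-fold higher were Psmd7 (1.19) and Psmd3 (1.18) in WT, and Psmc4 (1.43), Psmc1 (1.06) and Psmd12 (1.06) in KO. These were 2 and 3 of the 20 genes of the 19S list, where 5.82% and 10.8% of all genes were at least 2-fold higher. The 16 other genes of the 20S core and its assembly had medians of 0.465 and 0.445, with 16 and 13 higher. The 3 immunoproteasome genes thus had a median in WT, 0.38, near those of the other subunits, and in KO a median of -0.59. KO against WT without DSS gave medians of 0.04 for the 19S list, 0.10 for the other 20S genes, 0.23 for the constitutive catalytic subunits and 0.96 for the immunoproteasome genes.

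**Figure D3:**
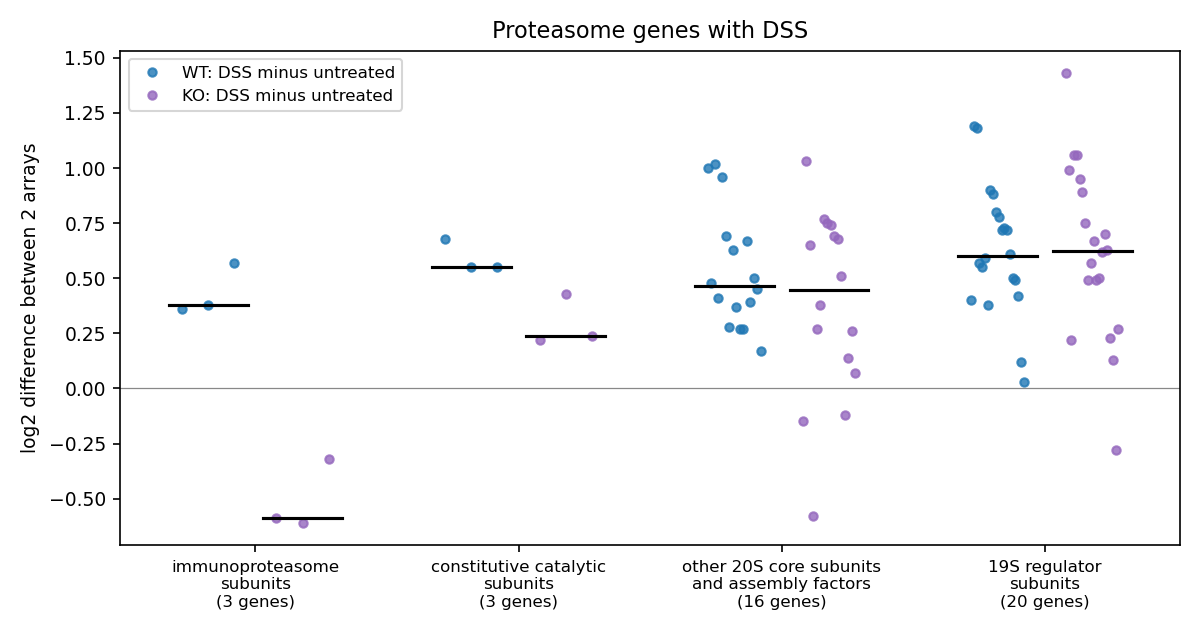
Log2 difference between the DSS and the untreated array (y axis) for 4 groups of proteasome genes (x axis), in WT (blue) and KO (purple), each point 1 gene and each bar the median. In KO the 3 immunoproteasome genes lie below 0 (median -0.59), whereas 19 of 20 genes of the 19S regulator lie above it.

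Among the activators, Psme1, a subunit of the PA28 cap that is induced by interferon-gamma, had 8.79 and 8.86 in WT and 9.38 and 8.93 in KO, with the untreated KO array highest. Psme3, the subunit of a nuclear form of the cap, had 5.62 and 7.13 in WT and 6.05 and 6.67 in KO, higher with DSS in both genotypes. Psmf1 and Psme4 differed by at most 0.43 in size in the 4 comparisons.

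The other genes of peptide loading and trimming did not share the pattern of the 10 genes. Of 16 measured, 1 had its highest value on the untreated KO array, Tapbpl, whose product TAPBPR is a relative of tapasin, with 6.58 and 6.13 in WT and 6.96 and 6.76 in KO. The list had medians of 0.21 and 0.27 with DSS in WT and KO and of -0.195 and -0.25 for KO against WT without and with DSS. Thop1, a cytosolic peptidase that degrades peptides, was higher with DSS by 1.17 in WT and 0.89 in KO. Hspa5, the main chaperone of the endoplasmic reticulum, was higher by 0.63 and 0.85, and the aminopeptidase gene Lap3 by 0.88 and 0.60.

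Other class I and class I-like genes were highest on the untreated KO array in 9 of the 12 measured, against 28.7% of all genes. Their medians were 0.695 for KO against WT without DSS, 0.205 with DSS, -0.295 for DSS in WT and -0.575 in KO. At least 2-fold higher in the untreated KO colon, as 3.43% of all genes were, were H2-T3 (2.55), which encodes the thymus leukemia antigen of small intestinal epithelium, H2-Q10 (1.22), H2-Q5 (1.14), H2-Q2 (1.10) and the neonatal Fc receptor gene Fcgrt (1.02). Of these, H2-T3 passed the filter through the untreated KO array, at 5.59 against 3.04 to 3.15 on the others, and so had to be highest there, while 8 of the other 11 were, with a median KO minus WT difference of 0.48 without DSS. H2-Q2 was lower with DSS in both genotypes, by -1.37 in WT and -2.96 in KO.

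Regulators of the pathway showed no common direction. Irf1, a factor that binds ISRE elements of class I and Psmb9 promoters, had 8.46 and 8.22 in untreated and DSS-treated WT and 8.95 and 9.0 in KO, above WT under both treatments as Nlrc5 was. Ciita, the class II counterpart of Nlrc5, was dim, with 3.39 and 3.20 in WT and 3.72 and 3.96 in KO. Stat2, a subunit of the factor that answers type I interferon, had 5.64 and 5.57 in WT and 6.43 and 5.17 in KO. Irf2 had 6.27, 5.34, 5.64 and 5.84 on these arrays, with the untreated WT array highest. Of 16 regulators measured, 4 had their highest value on the untreated KO array, against 28.7% of all genes. Of the 16, 1 differed by at least 2-fold in any of the 4 comparisons, Stat2 with DSS in KO (-1.26). In that comparison 6.68% of all genes were at least 2-fold lower.

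Ifng itself, the gene of interferon-gamma, did not pass the filter and had 1.65 and 1.96 in WT and 1.72 and 3.29 in KO, so that its highest value lay on the KO DSS array. Of 15 other genes known to be induced by interferon-gamma, 3 were highest on the untreated KO array, Igtp, Irgm1 and Irgm2, against 28.7% of all genes. The medians of the 15 were 0.62 and 1.11 for KO against WT without and with DSS, where the 10 class I genes had 0.68 and 0.14. Gbp2, a guanylate-binding protein gene with the largest mean difference of the list, had 8.41 and 7.47 in WT and 6.45 and 8.28 in KO, and was the only one at least 2-fold lower in untreated KO, by -1.96. Ido1, which encodes a tryptophan-degrading enzyme, had 5.24 and 6.28 in WT and 6.13 and 7.88 in KO. Cxcl10 had 5.87 and 5.74 in WT and 6.49 and 8.30 in KO, and Cxcl9 had 5.71 and 5.97 in WT and 6.99 and 8.06 in KO. These 2 chemokine genes were thus highest on the KO DSS array, on which none of the 10 members was. Among signalling genes, the feedback inhibitor genes Usp18 (1.47), Socs3 (1.34) and Socs1 (1.16) were at least 2-fold higher in the untreated KO colon. Usp18 was lower with DSS in KO by -0.99 and higher in WT by 0.51, while Socs3 was higher with DSS in both genotypes, by 2.51 and 2.33.

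The MHC class II list had nearly the same median as class I in the untreated KO minus WT comparison, 0.645 over 10 genes, and kept a similar one with DSS, 0.695. With DSS all 10 class II genes were lower in WT, with a median of -0.645, where the class I genes had 0.0. In KO, 7 of the class II genes were lower with DSS and 3 higher (45.4% and 53.6% of all genes), with a median of -0.745 against -0.345 for class I. The untreated KO array was the highest for 6 of the 10 class II genes, against 28.7% of all genes and all 10 class I genes. H2-Ob and H2-Oa, chains of the H2-O protein of B cells, had KO minus WT differences of -2.94 and -0.88 without DSS and of 3.22 and 2.24 with DSS. The difference between the lists was not tested.

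**Figure D4:**
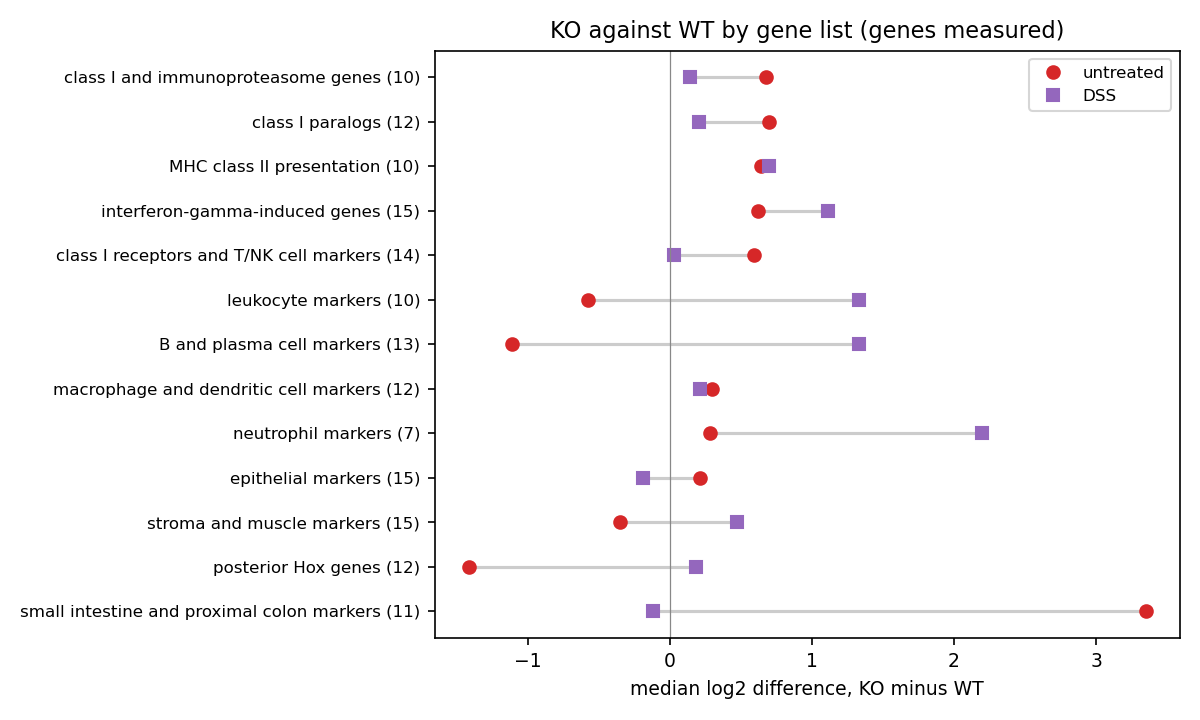
Median log2 difference between KO and WT (x axis) without DSS (red circles) and with DSS (purple squares) for the 10 genes and 12 gene lists (y axis, with the number of genes measured). The class I genes lie at 0.68 and 0.14, while leukocyte markers lie at -0.575 and 1.33.

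Markers of cell types also differed between these arrays, and their part in the class I values was not tested. Of 10 pan-leukocyte markers, 9 were lower in the untreated KO than in the untreated WT colon and 10 were higher in KO with DSS, with medians of -0.575 and 1.33. Their summed linear level was 1418 and 835 in untreated and DSS-treated WT and 976 and 2239 in KO, so the array with the highest class I values had the second lowest leukocyte level. B and plasma cell markers had the same signs, with medians of -1.11 and 1.33 over 13 genes. T and NK cell markers and class I receptors had medians of 0.59 and 0.03, and 11 of the 14 measured were highest on the untreated KO array (28.7% of all genes). Of these, Klrk1 and Cd5 passed the filter through that array alone and had to be highest there, and 9 of the other 12 were, with a median of 0.46 without DSS. The summed linear level of the 14 was 544 there against 306 to 351 on the others. The granzyme gene Gzmb had 4.73 and 5.18 in WT and 6.40 and 5.0 in KO, while Cd247, Cd8b1, Prf1 and Ncr1 did not pass the filter. Macrophage and dendritic cell markers had medians of 0.295 and 0.215 over 12 genes, with summed levels from 1272 to 1699. Neutrophil markers had their highest summed level on the KO DSS array, 833 against 50 to 150 on the other 3, with 7 of 11 above the filter. S100a9 (8.38) and S100a8 (8.30) had the highest values there, while Elane was highest on the untreated KO array (3.74). Clec4d (5.04 against 2.27 to 2.84) passed the filter only on the KO DSS array and had to be highest there. The median KO minus WT difference with DSS was 2.2, and 0.19 without the filter.

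Of 15 epithelial markers, 10 were highest on the untreated KO array (28.7% of all genes). The summed linear level of the 15 was 40585 there against 26226 to 31997 on the others. Without Car1, the carbonic anhydrase gene that made up most of that difference, the sums were 32942 and 24737 to 30829. Of the 15, 11 were higher in untreated KO than WT and 4 lower, with a median of 0.21 (48.2% of all genes were higher). Car1 (2.71) and Cdx2 (2.25) were at least 2-fold higher and Slc26a3 (-1.90) at least 2-fold lower, as 3.43% and 5.99% of all genes were. Stroma and muscle markers had a median of -0.35 without DSS, and 0 of 15 were highest on the untreated KO array, against 28.7% of all genes. Epithelial markers were bright on all 4 arrays, with Muc2 between 11.63 and 12.75. Housekeeping genes had medians of -0.13 and 0.045 for KO against WT.

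The genes outside the pathway whose 4 values, each minus the gene's own mean, lay closest to the median member were sought among 3335 genes with a range of at least 1 over the 4 arrays, a range that no member reached (0.42 to 0.97). The 8 nearest were Fgf3, Ppl, Gna12, Dst, Sstr2, Azgp1, Aldh3b1 and Trak2, at root mean square distances of 0.141 to 0.168 on the log2 scale. The 10 members themselves lay at 0.0678 (Tap2) to 0.213 (Psmb10). Without the limit on the range, 695 of 12179 other genes lay nearer than Fgf3, so the 8 are nearest only among genes that vary more than the members. Fgf3 (3.02 and 3.16 in WT, 4.03 and 3.37 in KO) passed the filter only on the untreated KO array and had to be highest there. Ppl, the gene of the epithelial linker periplakin, had 4.79 and 4.61 in WT and 5.63 and 4.94 in KO, and Dst, the gene of the linker dystonin, 6.82 and 6.55 in WT and 7.59 and 6.91 in KO. With 4 arrays, a likeness of this kind describes only these libraries.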

How the data were processed

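Total RNA from mouse distal colon was measured on 4 Affymetrix arrays after Trizol extraction and biotinylated cRNA synthesis, per the labels' protocols. The values the authors deposited have no stated scale and were read as log2: on a natural log scale the highest, 13.23, would be 556821, above a scanner's 65535. The sources used here do not name their summarization or normalization. They were used as deposited, with array medians of 3.42 to 3.46.

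Gene names came from the platform annotation and were brought up to date through Entrez numbers in RefSeq GRCm38.p6, where 34741 of 34945 with 1 symbol matched. Another 932 had several symbols (3 of them including a gene described here), 9160 none, and 64 were controls; these were not used for genes. Probe sets above the median on at least 1 array were kept, and the brightest of a gene represented it, which gave 12189 genes. Pairs of arrays were compared as log2 differences, called at 2-fold, with no test. Model fits used limma 3.58.1 in R 4.3.3 (two-sided, lmFit, then eBayes with trend on, Benjamini-Hochberg, threshold 0.05), and the code was tested on simulated data.

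Promoter windows came from RefSeq GRCm38.p6. The members and lists were chosen with earlier results of these data known. Genes named are all 10 members, 10 fixed related genes where measured, up to 4 members of each list by mean size of difference or all past 2-fold where 5 or fewer, and the 8 nearest in pattern, unnamed gene models left out. The markers Hoxb13, Osr2, Muc2 and Gzmb and the genes failing the filter were given as levels. Igtp, Irgm1 and Irgm2 were named for the array on which they were highest. Alternatives were the normalization, the filter, the probe sets used and the limma settings. Calculations used Python 3.11.15, numpy 2.4.6 and pandas 2.3.3, and plots matplotlib 3.10.9.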

Additional observations from a re-analysis of the deposited data

How the results depend on the processing

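The values of the 10 genes were recomputed with quantile normalization, with median centring, without the filter, with a stricter one (75th percentile), with a gene's mean over its probe sets, and without _x_at and _s_at probe sets, where H2-K1 has no probe set left. Under these 6 settings all member genes with a value stayed highest on the untreated KO array, higher in untreated KO than in untreated WT and lower with DSS in KO. The median without DSS ran from 0.65 to 0.74. H2-D1 moved from 0.36 to 0.63 for KO against WT among untreated mice without _x_at and _s_at probe sets. The median with DSS in WT moved from 0.0 to 0.13 without _x_at and _s_at probe sets, where H2-D1 turned from -0.06 to 0.13. Some counts of 0 moved. Under quantile normalization 2 members, Psmb8 (1.085) and Psmb9 (1.0925), were at least 2-fold higher in untreated KO. That setting also raised the untreated KO array over all genes. There 492 of 12189 genes were at least 2-fold higher in untreated KO, against 418 as deposited. The median untreated KO minus WT difference over all genes was 0.08, against -0.01 as deposited. With the mean over probe sets 1 member was at least 2-fold lower with DSS in KO (Tapbp, -1.07). With that mean the KO minus WT value of Tapbp was 0.845 without and -0.065 with DSS. Limma's DSS test called 0 genes as deposited, and 1 under quantile normalization or without the covariate; that gene was in neither case a member, and with quantile normalization 1 member, H2-K1, had an unadjusted p under 0.05. The members at least 1.5-fold lower with DSS in KO were 3, and 1 under median centring. The only other change of sign was that of Psmb8 in KO against WT with DSS, 0.01 as deposited and -0.0075 and 0.0 under quantile normalization and median centring. The gene lists were recomputed under these settings after the values were seen, and of 480 medians 10 had another sign, all of them at most 0.175 in size as deposited. The comparison without the untreated KO array gave 6 or 7 higher members under every setting. The nearest genes were recomputed only without the limit on their range. The cause of these changes was not tested. No paired analysis was possible because each group held 1 array, and for the same reason no replicate was left out. The depth behind the log2 values is not known.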
